A study of Mus musculus with 6 samples.

Results

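The genes described here encode channels of the hyperpolarization-activated current and proteins that move chloride across membranes: Hcn2, Hcn3, Hcn4, Ano1, Ano3, Clcn3, Clcn6 and Slc12a2. They were chosen by symbol, as every probe set whose annotation lists exactly one of these 8 genes. Of the 8 genes, 7 were measured, by 16 of the 45037 probe sets tested, and the annotation used here lists no probe set for Hcn4. The tissue was whole dorsal root ganglia (DRG) of 3 Meis1cko and 3 control mice at P60, hybridized with 1 Affymetrix mouse genome array per mouse. Meis1cko mice carry a floxed Meis1 allele, from which exon 8 is removed by Cre under the Nav1.8 promoter, active in most nociceptors, while RNA of every other cell of the ganglion also enters each value. The labels call the other group control, and the study used floxed littermates as controls in its behavioural tests. The sex of the mouse behind each array is not given in the sources used here.

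HCN channels open on hyperpolarization, pass a mixed cation current called Ih, and bring sensory neurons back toward firing threshold. Chloride acts differently in these neurons than in most central ones. Adult DRG neurons keep chloride high through the inward cotransporter NKCC1, so that opening a chloride channel depolarizes them. The anoctamin ANO1 is such a channel, opened by calcium, and the CLC proteins ClC-3 and ClC-6 exchange chloride for protons in endosomal membranes.

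Intensities are linear and were normalized by the authors, and differences are given on the log2 scale, Meis1cko minus control. Meis1 itself had intensities of 66.0, 72.1 and 64.2 in Meis1cko DRGs, against 109.7, 143.8 and 90.2 in control DRGs, on its brightest probe set. The log2 difference there was -0.74 (unadjusted p = 0.00434 in limma). It did not pass the adjusted threshold of 0.05, and with the replicate numbers as a block the adjusted p in limma was 0.160. The dimmer Meis1 probe sets had log2 differences of -0.16, with overlapping groups, and 0.13, higher in every Meis1cko than in every control mouse. All 6 listed markers of sensory neurons lay at or above the median intensity, and 4 of the 5 listed markers of spinal cord glia lay below it. In both genotypes the replicate 3 array stood apart. For Actb, the control probe set of the 3′ end exceeded that of the 5′ end on the log2 scale by 0.44 in Meis1cko and 0.42 in control on these arrays, while the other 4 arrays gave values between 1.23 and 1.66. For the brightest probe sets of the members, results that rest on the replicate 3 arrays are given with and without them. The dimmer probe sets are given with all arrays only.

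None of the 16 probe sets passed the adjusted threshold of 0.05 in limma, against 7 of all 45037 probe sets (0.0155%). At an unadjusted p under 0.05 there were 0 of 16 in limma, where the share over all probe sets was 2.32%. With the replicate numbers as a block, 4 of 16 had an unadjusted p under 0.05, against 6.99% of all probe sets, while 0 of 16 passed after adjustment, against 0.0822% of all. The 4 were the brighter Ano1 probe set, the dim Clcn3 probe set 1441248_at and both dimmer Slc12a2 probe sets, so they are not 4 separate genes. On the brightest probe set of each gene the unadjusted count was 1 of 7, against 7.11% of all genes. The smallest adjusted p among the 16 in that fit was 0.585. The groups did not overlap for 1 of the 16, against 6.64% of all probe sets. At a fold change over 1.5, the size used in the methods, and an unadjusted p under 0.05 from limma, which the methods did not use, there were 0 of 16, against 0.675% of all probe sets. On the brightest probe set of each gene, 5 of the 7 genes had a log2 difference above 0 and 2 below 0, with a median of 0.05. Over all 18193 genes treated this way, that median was -0.01.

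**Figure D1:**
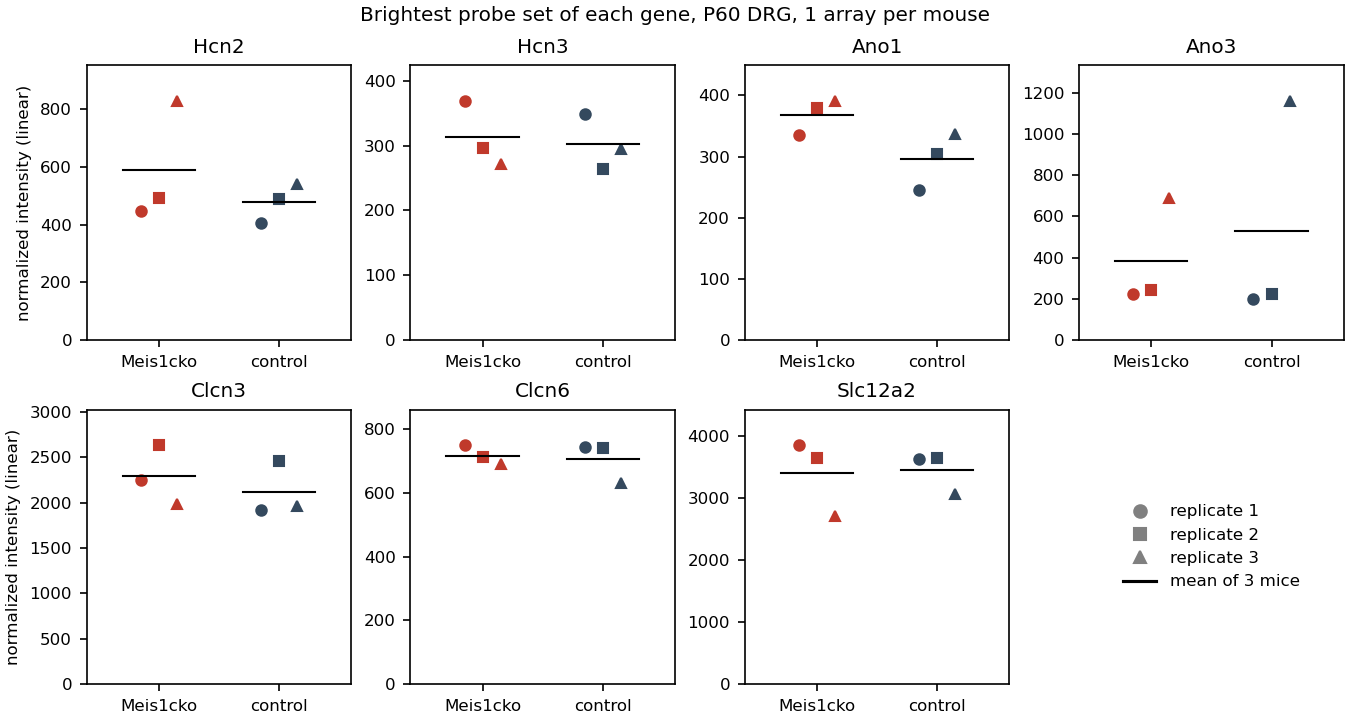
Normalized intensity (linear axis from 0) of the brightest probe set of each of the 7 measured genes in every Meis1cko and control mouse, with marker shapes for replicate numbers and bars for group means of 3 mice. The groups overlap for every gene, and for Ano3 the replicate 3 mice, at 686 in Meis1cko and 1159 in control, lie far above the other mice of their genotype.

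Hcn2 encodes the HCN subunit that is most closely tied to inflammatory and neuropathic pain in mice, and it is opened more readily by cyclic AMP. Its only probe set, 1421154_at, had intensities of 447, 494 and 829 in Meis1cko DRGs, against 407, 489 and 542 in control DRGs. The Meis1cko replicate 3 mouse was the highest of the 6, and the other Meis1cko mice lay within the control range. The means were 589.9 ± 208 in Meis1cko and 479 ± 68.4 in control DRGs (SD, n = 3 mice each), a log2 difference of 0.25 (SE 0.25, adjusted p = 1 from limma). Its 95% interval ran from -0.32 to 0.83, or from 0.799-fold to 1.78-fold. Without the Meis1cko replicate 3 array the log2 difference was -0.019, and without both replicate 3 arrays it was 0.075, so that the higher mean rested on 1 mouse.

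Hcn3 encodes a subunit of the same family with little response to cyclic AMP. Its probe set 1451023_at had intensities of 369, 297 and 272 in Meis1cko DRGs, against 348, 263 and 294 in control DRGs. The highest mouse of each genotype was replicate 1, and the groups overlapped throughout. The log2 difference was 0.05 (SE 0.17), with a 95% interval from -0.34 to 0.44. The expression of Hcn4, the pacemaker subunit of the heart, was not analysed here. Of the partners of HCN channels fixed as a list, Pex5l, whose product TRIP8b controls the surface number and gating of HCN channels, averaged 895 ± 239 in Meis1cko and 884 ± 156 in control DRGs, with a log2 difference of 0.00. The accessory subunit gene Kcne2 had -0.02 and was dim in both groups.

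Cyclic AMP for HCN channels comes from adenylyl cyclases, and the 9 genes of the membrane-bound ones were all measured, with 6 log2 differences above 0 and 3 below 0. None passed the adjusted threshold. Those with the smallest p were Adcy4 at 0.30, Adcy7 at 0.59 and Adcy2 at 0.18. Adcy7 averaged 180.2 ± 37.1 in Meis1cko and 125 ± 46.7 in control DRGs, with overlapping mice. Between mice of the same replicate number it was higher in the Meis1cko mouse by 0.39, 0.42 and 0.94 on the log2 scale, and with the replicate block its p in limma was 0.00334 before and 0.338 after adjustment.

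Ano1 encodes the calcium-activated chloride channel that depolarizes nociceptors on noxious heat and bradykinin. Its brightest probe set, 1459713_s_at, had intensities of 335.9, 379.5 and 390.8 in Meis1cko DRGs, against 245, 304 and 337.7 in control DRGs. The groups overlapped only where the highest control mouse, replicate 3, lay just above the lowest Meis1cko mouse. The means were 369 ± 29.0 in Meis1cko and 296 ± 47.0 in control DRGs (SD, n = 3 mice each), a log2 difference of 0.33 (SE 0.15, 95% interval from -0.03 to 0.69). The unadjusted p was 0.0675 and the adjusted p 1 in limma, and an exact two-sided permutation test of this gene alone gave p = 0.2, where 0.1 is the smallest that 3 mice against 3 allow.

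Between mice of the same replicate number, Ano1 was higher in the Meis1cko mouse by 0.46, 0.32 and 0.21 on the log2 scale. With this pairing as a block, the unadjusted p was 0.0167 and the adjusted p 0.585. The sign held without each array in turn, between 0.20 and 0.43, and without both replicate 3 arrays, at 0.39. The second Ano1 probe set was dimmer, at 78.1, 113 and 114 in Meis1cko DRGs and 78.3, 96.5 and 89.6 in control DRGs, with a log2 difference of 0.19 (SE 0.18). The brighter one has the suffix that the manufacturer gives to probe sets that may match more than 1 transcript. Smooth muscle is another known site of Ano1, and all 4 listed markers of mural and smooth muscle cells had log2 differences above 0. The one with the smallest p was Acta2 at 0.76 (adjusted p = 1 in limma), higher in every Meis1cko than in every control mouse, and the others lay between 0.05 and 0.47. The groups did not overlap for 2 of the 4 markers, against 6.94% of all genes. The summed intensity of the 4 markers was 3920 to 7198 in Meis1cko and 3700 to 5404 in control DRGs, and none was at 0. Rgs5 was the brightest of the 4 and alone had 5946, 2971 and 4852 in Meis1cko, against 3151, 4784 and 3104 in control DRGs. The mean log2 intensity of the 4 was 8.68 to 9.16 in Meis1cko and 8.33 to 8.62 in control DRGs, without overlap. The part of these 4 markers in the Ano1 values was not tested. Of the 5 measured nociceptor markers, 3 lay above 0 and 2 below 0, with a median of 0.03. All 4 measured markers of large myelinated neurons lay above 0, with a median of 0.05. The smallest p were those of Scn10a and Ntrk3, each at 0.48. They were the only 1 of the 5 and 1 of the 4 whose groups did not overlap, against 6.94% of all genes. None of these markers passed the adjusted threshold, and their part in the Ano1 values was not tested. In RNA of a whole ganglion, more cells of a type and more RNA per cell cannot be told apart.

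**Figure D2:**
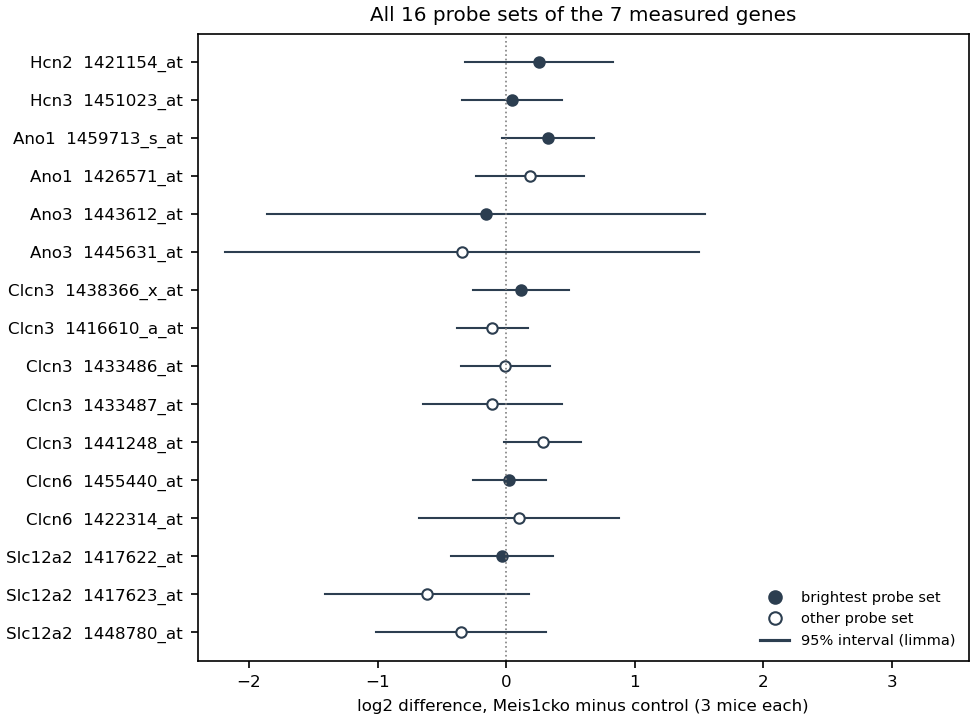
Log2 difference (Meis1cko minus control, 3 mice each) of all 16 probe sets, with 95% intervals from limma as lines, filled circles for the brightest probe set of a gene and open circles for the others. Every interval spans 0, and those of Ano3 are the widest, from -1.86 to 1.54 and from -2.19 to 1.51.

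Ano3 encodes an anoctamin that, in rat nociceptors, binds the sodium-activated potassium channel Slack and raises its activity. Its brightest probe set, 1443612_at, had intensities of 225, 242 and 686 in Meis1cko DRGs, against 199, 224 and 1159 in control DRGs. In both genotypes the replicate 3 mouse stood far above the geometric mean of the others, by 2.94-fold in Meis1cko and 5.49-fold in control DRGs. The second probe set gave 74.9, 73.7 and 206 in Meis1cko DRGs, against 67.1, 71.3 and 483 in control DRGs. There the replicate 3 mouse lay 2.77-fold above the others in Meis1cko and 6.98-fold in control DRGs. Over the whole table, 111 of 45037 probe sets (0.246%) were as far up in replicate 3 of both genotypes as the brightest Ano3 probe set.

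The log2 difference of Ano3 between genotypes was -0.16 with an SE of 0.73, against a median SE of 0.17 over probe sets of at least median intensity. It was 0.14 (SE 0.15) without both replicate 3 arrays, 0.66 without the control replicate 3 array and -0.68 without the Meis1cko replicate 3 array. Among the marker lists, all 5 skeletal muscle markers were lower in replicate 3 of both genotypes, as were 8898 of all 18193 genes. The lists of endothelium and spinal cord glia each had 4 of 5 markers lower in this way. The summed intensity of the muscle markers was 379 in replicate 3 of Meis1cko, against 1053 and 696 in replicates 1 and 2. In control DRGs it was 233 against 2395 and 881. The part that the Actb 3′ and 5′ values or the muscle markers have in the Ano3 values was not tested, and neither was what the replicate numbers stand for.

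The deleted factor Meis1 binds the letters TGACAG, which were searched on both strands of the windows of 300 bases, 250 before and 50 after each start, that RefSeq gives for GRCm38.p6. The windows searched for the members hold 8 starts of 6 of the 8 genes, those of Hcn2, Hcn4, Ano1, Ano3, Clcn3 and Clcn6. Starts on 1 chromosome were left out of the search for the members but kept in the share over all windows. Hcn3 and Slc12a2 had no window in the search, so their starts were not analysed. The letters were in 1 of the 8 windows, the downstream of the 2 Ano3 starts, and in 19.2% of all 32851 windows. Both Ano3 starts are shown because Ano3 varied most of the members between mice and 1 of them holds the match. Each line gives the 250 bases before the start, 5′ to 3′ on the strand of the gene, with the match in capitals.
Ano3, chr2:110840060-110840309, minus strand: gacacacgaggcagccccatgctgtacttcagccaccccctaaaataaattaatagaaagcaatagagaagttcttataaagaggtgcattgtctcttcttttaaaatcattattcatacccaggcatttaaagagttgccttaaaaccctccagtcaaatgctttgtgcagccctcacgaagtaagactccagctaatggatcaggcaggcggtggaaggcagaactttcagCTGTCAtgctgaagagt
Ano3, chr2:110950245-110950494, minus strand: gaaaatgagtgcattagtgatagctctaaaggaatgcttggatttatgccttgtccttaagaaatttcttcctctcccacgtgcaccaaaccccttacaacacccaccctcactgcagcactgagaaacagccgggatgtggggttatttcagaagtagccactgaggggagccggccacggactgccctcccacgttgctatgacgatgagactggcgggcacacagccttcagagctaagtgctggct
The match lies on the opposite strand, and its first printed base is at position -17 relative to the start. It is a match of letters and was not tested as a binding site.

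Of the 5 other anoctamin genes measured, none passed the adjusted threshold. The 3 with the smallest p were Ano9 at -0.11, Ano10 at -0.01 and Ano8 at 0.01 on the log2 scale. Ano9 was dim in both groups. Ano10 was measured with little spread, at 357 ± 22.6 in Meis1cko and 359 ± 24.9 in control DRGs.

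**Figure D3:**
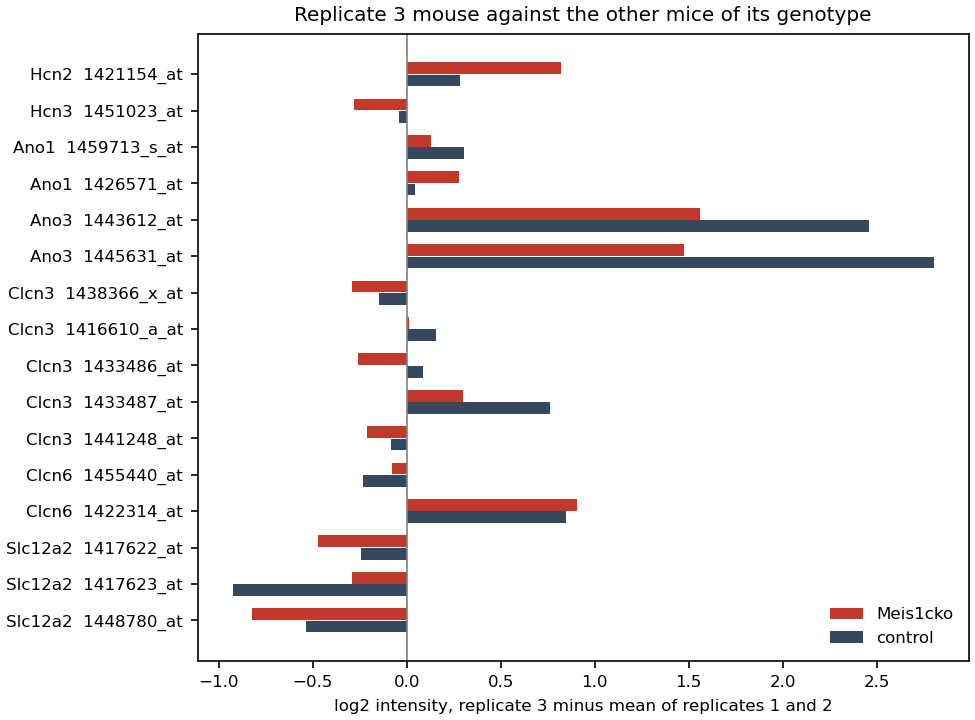
Log2 intensity of the replicate 3 mouse minus the mean of replicates 1 and 2 of the same genotype, for all 16 probe sets, with Meis1cko bars above control bars. Both Ano3 probe sets reach 1.47 to 2.80, and 15 of the 16 probe sets have the same sign in both genotypes.

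This spread by replicate number was not limited to Ano3. Of the 16 probe sets, 8 were higher and 7 lower in replicate 3 of both genotypes, while of all probe sets of at least median intensity 26.5% were higher and 53.1% lower. When the squared deviations of the brightest probe sets over the 6 arrays were split, replicate number took 69.4% for Hcn2, 94.6% for Ano3 and 89.6% for Slc12a2, and genotype took 15.1%, 0.645% and 0.760%. On the brightest probe sets, Ano1 was the one gene of the 7 in which genotype took more than replicate number, at 53.9% and 41.1%. The second Ano1 probe set had the opposite order, with 18.1% for genotype and 71.2% for replicate number. Replicate number has more levels than genotype, which by itself enlarges its share. Over all probe sets of at least median intensity, the medians were 6.21% for genotype and 71.2% for replicate number.

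Clcn3 encodes ClC-3, an exchanger of endosomes and synaptic vesicles. Its brightest probe set, 1438366_x_at, had intensities of 2248, 2630.4 and 1989 in Meis1cko DRGs, against 1923, 2454 and 1961 in control DRGs. In both genotypes replicate 2 was the highest mouse. The log2 difference was 0.12 (SE 0.16), with a 95% interval from -0.26 to 0.49. This probe set carries the suffix of those whose probes may also match other sequences.

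The other 4 Clcn3 probe sets had log2 differences of -0.11, -0.01, -0.11 and 0.28. The last of these, 1441248_at, was the one probe set of the 16 whose groups did not overlap. It had 27.8, 31.1 and 25.4 in Meis1cko DRGs, against 22.2, 24.7 and 22.1 in control DRGs, below the median of every array. Its unadjusted p was 0.0597 and its adjusted p 1 in limma, and the exact two-sided permutation p was 0.1, the smallest possible. The log2 difference between genotypes of the brightest probe set minus this one, taken within arrays, was -0.17 (exact two-sided permutation p = 0.1). It is 1 of 9 such comparisons within genes, none of which can pass 0.05 with 3 mice against 3.

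Clcn6 encodes ClC-6 of late endosomes, whose loss in mice gives a lysosomal storage disease with reduced pain sensitivity. On 1455440_at it varied least of the 7 genes, with 748, 711 and 689.6 in Meis1cko DRGs, against 743, 741 and 632 in control DRGs. The groups overlapped throughout, and the lowest mouse of each genotype was replicate 3. The log2 difference was 0.03 (SE 0.12), with a 95% interval from 0.836-fold to 1.24-fold. The dimmer Clcn6 probe set gave 0.10 (SE 0.33), and its replicate 3 mice were the highest of each genotype, at 148 in Meis1cko and 135 in control DRGs.

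Of the other CLC genes and their accessory subunits, 7 of 9 were measured and none passed the adjusted threshold. Bsnd, which encodes the accessory subunit barttin, had the smallest p, with 104 ± 0.661 in Meis1cko and 131 ± 28.5 in control DRGs. Its log2 difference was -0.31, and all Meis1cko mice lay below all control mice. The muscle channel gene Clcn1 had 0.22 and the endosomal exchanger gene Clcn5 -0.15.

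Slc12a2 encodes NKCC1, the cotransporter that loads DRG neurons with chloride. Its brightest probe set, 1417622_at, had intensities of 3851, 3648 and 2706 in Meis1cko DRGs, against 3631 and 3641 in control replicates 1 and 2 and 3067 in control replicate 3. The replicate 3 mouse was the lowest of each genotype. The means were 3402 ± 611 in Meis1cko and 3447 ± 329 in control DRGs (SD, n = 3 mice each), a log2 difference of -0.03 (SE 0.17, 95% interval from 0.745-fold to 1.29-fold). Without the Meis1cko replicate 3 array it was 0.13.

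The dimmer Slc12a2 probe sets lay further below 0. Probe set 1417623_at had 172, 346 and 199.8 in Meis1cko DRGs, against 420.2, 447 and 228 in control DRGs. All 3 pairs of the same replicate number were lower in the Meis1cko mouse, with log2 differences of -1.29, -0.37 and -0.19, while the unpaired groups overlapped at the control replicate 3 mouse. The log2 difference was -0.62 (SE 0.34, 95% interval from -1.41 to 0.18), and its p in limma was 0.110 before and 1 after adjustment. With the replicate block the unadjusted p was 0.0184 and the adjusted p 0.593.

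Probe set 1448780_at had 640.0, 460.1 and 307 in Meis1cko DRGs, against 639, 655 and 446 in control DRGs. Its log2 difference was -0.35 (SE 0.28). Taken within arrays, the brightest probe set minus each dimmer one differed between genotypes by 0.58 and 0.32 on the log2 scale (exact two-sided permutation p = 0.2 for each). All 3 probe sets were annotated from the same sequence record, and where they lie on the transcript was not analysed here. Satellite glia are another known site of Slc12a2, and their 4 measured markers went both ways, with 2 above 0 and 2 below 0 and a median log2 difference of 0.05. The one with the smallest p, the potassium channel gene Kcnj10, had -0.36 (adjusted p = 1 in limma), lower in every Meis1cko than in every control mouse. It was the only 1 of the 4 whose groups did not overlap, against 6.94% of all genes. The markers summed to 14950 to 17322 in Meis1cko and 13828 to 16086 in control DRGs. The 5 fibroblast markers all had log2 differences below 0, with a median of -0.54. The one with the smallest p was Lum at -1.34 (adjusted p = 0.0686 in limma and 0.00717 with the replicate block), lower in every Meis1cko than in every control mouse. The groups did not overlap for 2 of these 5 markers, Lum among them, against 6.94% of all genes. The fibroblast sums were 6393 to 8355 in Meis1cko and 9082 to 14352 in control DRGs, and none was at 0. The 5 macrophage markers also lay below 0, with a median of -0.39, and the groups overlapped for each. The one with the smallest p was C1qa at -0.48. Of the marker lists, only those of fibroblasts and macrophages had every log2 difference below 0. The part of any of these lists in the Slc12a2 values was not tested.

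**Figure D4:**
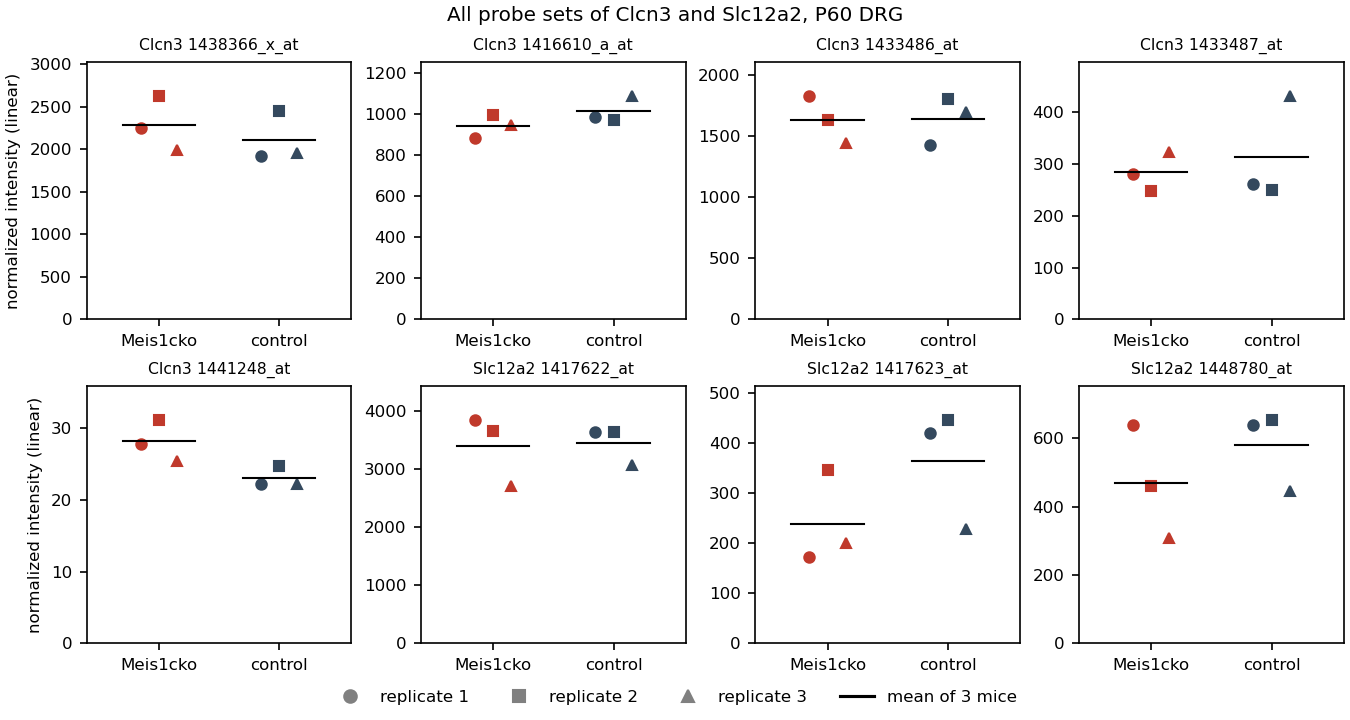
Normalized intensity (linear axis from 0) of all 5 Clcn3 and all 3 Slc12a2 probe sets in each mouse, with marker shapes for replicate numbers and bars for group means of 3 mice. For Slc12a2 the bars are nearly level on the brightest probe set (3402 in Meis1cko, 3447 in control) and further apart on 1417623_at (239 in Meis1cko, 365 in control).

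The family of NKCC1 also holds the KCC cotransporters, which carry chloride outward, and 7 of its 8 other listed genes were measured, with 6 log2 differences below 0 and 1 above 0, between -0.12 and 0.03. None passed the adjusted threshold. Slc12a7, which encodes KCC4, had -0.12, Slc12a4, which encodes KCC1, -0.06, and Slc12a9 -0.06. Slc12a5 encodes KCC2, the main outward transporter of central neurons, and is named here outside the rule. It had 80.7, 84.6 and 51.8 in Meis1cko DRGs, against 79.3, 78.7 and 57.3 in control DRGs, close to the median intensity of the arrays, with a log2 difference of -0.01.

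NKCC1 is switched on, and KCC transporters off, by the WNK kinases through SPAK and OSR1. All 8 listed genes of these kinases and their activator MO25 were measured and none passed the adjusted threshold, with 6 log2 differences above 0, a median of 0.11 and a highest value of 0.21. Wnk1 averaged 2631 ± 191 in Meis1cko and 2367 ± 66.6 in control DRGs, a log2 difference of 0.15, and all Meis1cko mice lay above all control mice. Wnk4 had 0.21 and Wnk2 0.16.

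Of the 11 other anion channel and exchanger genes, 9 were measured. The smallest p were those of Cftr at 0.18, Best1 at -0.20 and Best2 at 0.11, of which Cftr was dim, at 12.3 in Meis1cko and 10.8 in control DRGs. Over all 7 pathway lists, 47 of 57 genes were measured, 23 had log2 differences above 0 and 24 below 0, and the median was -0.00146. None passed the adjusted threshold or had an unadjusted p under 0.05 in limma, and with the replicate block 2, Adcy4 and Adcy7, had an unadjusted p under 0.05 and none an adjusted one, where the unadjusted share over all 18193 genes was 7.11%. The groups did not overlap for 3 of the 47, Bsnd, Wnk1 and Cftr, against 6.94% of all genes. Neither count exceeded the share over all genes.

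The genes nearest to each member in their profile over the 6 arrays were found by the root mean square difference in log2 intensity, after the mean of each gene was taken off, among 12171 genes at or above the median intensity. They were Calb2 and Plekhg6 for Hcn2 (0.0689 and 0.0708), Cdkl1 and Riox2 for Hcn3 (0.0322 and 0.0480), and Tigd5 and Mtus1 for Ano1 (0.0567 and 0.0572). For Ano3 they were 6820431F20Rik and Mlf2, at the larger distances of 0.248 and 0.293. Clcn3 lay nearest to Mapre2 and Arhgap44 (0.0336 and 0.0374), Clcn6 to Rexo1 and Map1lc3a (0.0218 and 0.0219), and Slc12a2 to Romo1 and Zfp955a (0.0165 and 0.0205). These distances are descriptions over 6 arrays that share the replicate 3 spread.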

How the data were processed

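Total RNA of cervical, thoracic and lumbar DRGs was hybridized to Affymetrix arrays. The authors read the images with GeneChip Command Console and ran the basic analysis in GeneSpring, and they took a fold change over 1.5 with p under 0.05 in t-tests as a difference. The deposited intensity values are linear, already normalized and all above 0. How the authors summarised and normalized the probes is not given in the sources used here, and this may affect dim probe sets most. The kit named in the methods (RNeasy) differs from that in the labels (Trizol).

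Values were taken to log2 without an offset, and 64 control probe sets were left out. Probe annotation listed 1 gene for 34945 probe sets, several for 932 and none for 9160. Each gene stands by the brightest of its probe sets. The test was that of limma 3.58.1 (lmFit, eBayes; R 4.3.3) with genotype as its only term and Benjamini-Hochberg adjustment over 45037 probe sets. Intervals come from the same fit. The fit was tested on simulated data in which each array varied independently. That simulation lacked the spread that arrays of the same replicate number share, so it does not show how the fit behaves under it. The number of arrays limits the precision.

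The genes and the gene lists were chosen with earlier results of these data known. The text names all members, Meis1, up to 3 genes of each pathway list by smallest p, the 2 genes nearest to each member in profile, and, where a marker list stands beside a difference between genotypes, its gene of smallest p. Slc12a5 and Rgs5 were named outside this rule. Marker lists covered 12 cell types. Arrays of the same replicate number deviated from their group means together (correlations of 0.424, 0.535 and 0.766 for replicates 1, 2 and 3), so that the numbers count as a pairing here. Arrays of replicates 1 and 2 also correlated across numbers (0.337 and 0.319), and replicate 3 correlated negatively with both (-0.60 to -0.52), so that most of the pairing is the split of replicate 3 from the others. The sources do not say what the numbers stand for. Alternatives were the replicate block, arrays left out, other scalings, variance models, filters and offsets, the methods' t-test, and the mean of all probe sets of a gene.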

Additional observations from a re-analysis of the deposited data

How the results depend on the processing

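No setting brought a member past the adjusted threshold, and the smallest adjusted p was 0.171, for Ano1 with array weights in limma. Over all probe sets the number called was 7 in limma without a block, 37 with the replicate block, 26 without both replicate 3 arrays, 11 after quantile normalization, 177 with array weights, 0 in the methods' t-test (1371 at an unadjusted p under 0.05), 4 with a filter at the median and 1 with an offset of 16. It was between 1 and 15 when each array was left out in turn. The replicate block changed no call among the members.

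Of 119 values of the members' log2 differences under other settings, 89 moved by more than 1e-06. The block, the variance trend, the t-test and the filter change the test alone. Averaging over probe sets cannot move Hcn2 or Hcn3, which have 1 probe set each. Of these 89, 73 kept the sign and 16 did not. Ano1 and Clcn3 kept it in all of them. Without both replicate 3 arrays, Ano3 was 0.14, Clcn6 -0.025 and Slc12a2 0.044, and with array weights Clcn6 was -0.031 and Slc12a2 0.020. The cause was not tested. With each array left out in turn, Hcn2 lay between -0.019 and 0.43, Hcn3 between -0.078 and 0.15, Ano1 between 0.20 and 0.43, Ano3 between -0.68 and 0.66, Clcn3 between 0.01 and 0.23, Clcn6 between -0.052 and 0.065, and Slc12a2 between -0.13 and 0.13. Averaging all probe sets of a gene gave 0.26 for Ano1, 0.04 for Clcn3 and -0.33 for Slc12a2.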
